A study of Mus musculus with 14 samples.

Results

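The strain by condition interaction in mouse anterior cingulate cortex was measured as the change in AKR mice minus the change in B6N mice. For each gene this is (AKR after observational fear minus naive AKR) minus (B6N after observational fear minus naive B6N) on the log2 scale, so a fold change shared by both strains drops out. All 14 libraries of the series entered, 14 of 14, because the contrast needs all 4 groups. There were 4 libraries from naive AKR/J mice and 3 from AKR/J mice labelled OFL, the abbreviation used in this field for observational fear learning. The other strain was C57BL/6NJ, called B6N, with 4 naive and 3 OFL libraries. In the observational task an animal sees a conspecific being shocked and acquires fear without a shock of its own. Tissue, Trizol extraction and TruSeq library kit were the same for all groups in the labels, and no allele or drug is named for any group. Whether each library came from its own animal is not given, so the tests rest on the spread between libraries, part of which may be technical.

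The anterior cingulate cortex is a midline frontal region that takes part in pain, emotion and the response of an animal to the distress of others. Inbred strains can differ in a gene before an experience, after it, or in both states, and an interaction is the part of the strain difference that differs between the states. A pair of gene groups described here respond quickly to the state of an animal. Glucocorticoid response genes are switched on when the adrenal hormone corticosterone binds its receptor in the cell. Endoplasmic reticulum chaperones fold secreted and membrane proteins, and they are induced together when unfolded protein builds up in that compartment.

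Total counts were 13487311 to 25780227 per library, and all 6 OFL libraries were shallower than the 8 naive libraries. Within a group, Spearman's correlation between libraries was at least 0.994. Each condition was counted in a table of its own, and some classes of RNA differed strongly between the conditions in both strains. The summed level of the replication-dependent histone genes was 44.9 to 63.9 CPM in naive libraries and 347 to 372 CPM in OFL libraries, where CPM is the count per 1000000 counts after TMM scaling of the library size. Condition and library set cannot be told apart in the OFL minus naive differences. A fold shared by both strains cancels in the interaction, while a shared amount cancels only on the linear scale. A set difference that acted as an unequal fold in AKR and B6N would stay in the interaction. It could not be told apart there from an effect of OFL, and this was not tested. In bulk tissue, fewer cells of a type and less RNA per cell cannot be told apart.

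Of 20291 genes tested with edgeR's quasi-likelihood test, 1044 (5.15%) had an interaction at an adjusted p under 0.05, the rule for a call throughout. The interaction was positive for 732 genes (3.61%), meaning that the change in AKR lay above the change in B6N, and negative for 312 (1.54%). At an unadjusted p under 0.05 there were 3493 genes. The median interaction over all tested genes was 0.01. Changes within a strain were far more common: OFL minus naive was called for 15968 genes in AKR (78.7%) and for 15916 in B6N (78.4%).

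Most interactions were small. The median size was 0.41 on the log2 scale for positive and 0.48 for negative genes, 127 and 71 of them were at least 2-fold, and 511 and 178 were under 1.5-fold. Of those at least 2-fold, 14 positive and 3 negative genes met the conditions for naming. These were protein-coding, at least 5 CPM, under 5% opposite-strand overlap, and no predicted-gene, clone or pseudogene name. For the 732 positive genes the median strain difference, AKR minus B6N, was -0.31 in naive and 0.10 in OFL libraries. For the 312 negative genes it was 0.29 in naive and -0.16 in OFL libraries. These simple comparisons share libraries with the interaction and are given only to show its shape. Abundant genes were called more often, from 1.31% of genes under 1 CPM to 10.9% of genes at 100 CPM or more. At 100 CPM or more, 246 of 2598 genes were positive and 38 negative. Of the genes averaging 5 CPM or more, 5.08% were positive and 1.91% negative. Without B6N OFL replicate 2 the negative genes numbered 207.

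**Figure D1:**
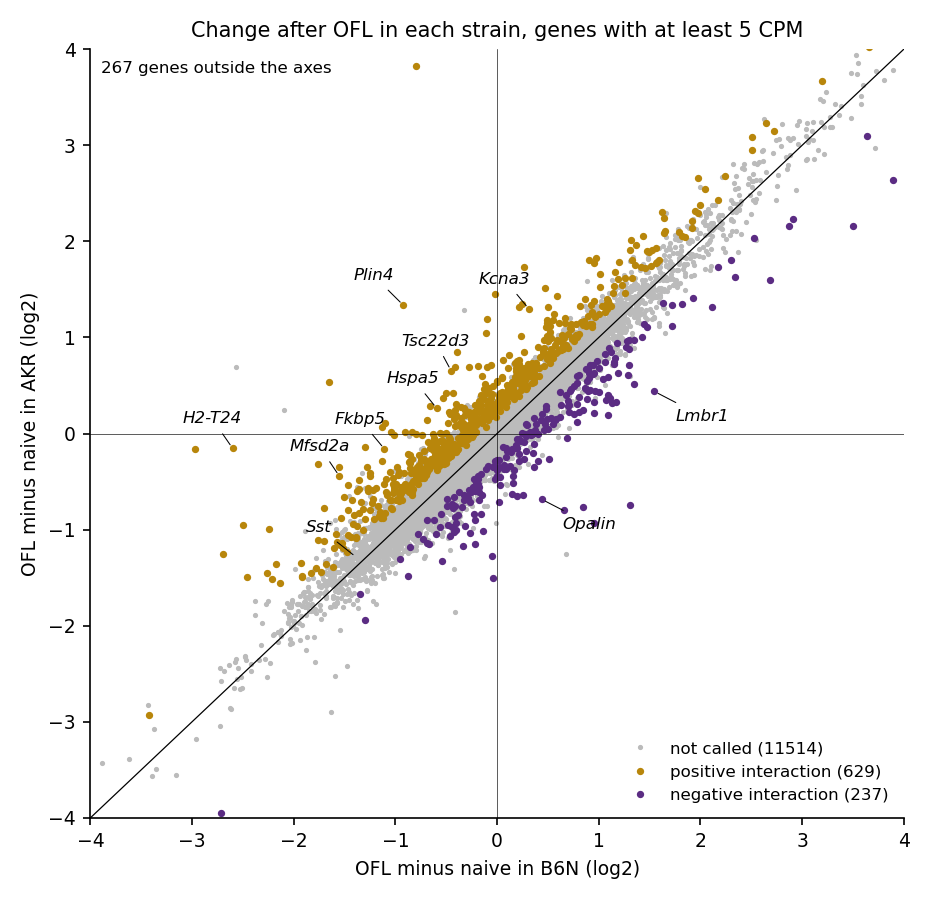
Each point is a gene averaging 5 CPM or more (12380 genes): x axis, OFL minus naive in B6N, y axis, OFL minus naive in AKR, both log2. The diagonal is an interaction of 0. The 629 positive genes lie above it and the 237 negative genes below it, and 267 genes lie outside the axes.

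Genes of the glucocorticoid response had positive interactions. Of 21 members, all tested, 9 (42.9%, against 3.61% of all genes) were called positive and none negative. In this list 20 lay above 0, and the median was 0.42 against 0.01 for all genes. The 9 were Plin4, Tsc22d3, Fkbp5, Sult1a1, Cdkn1a, Map3k6, Mertk, Fam107a and Zbtb16. In naive libraries 18 of the 21 were called lower in AKR than in B6N and none higher (all genes, 32.8% called, 17.2% lower), with a median of -0.60. After OFL 3 were lower and 3 higher (all genes, 8.24% lower and 8.11% higher), with a median of -0.10. The list was chosen with an earlier account of these data known, so its direction is a description. The number called positive stayed between 8 and 10 when any library was left out.

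Plin4 encodes perilipin 4, a coat protein of lipid droplets, at chr17:56100591-56109803 on the minus strand of GRCm38. It measured 7.68, 8.82, 9.95 and 9.47 CPM in naive AKR, and 24.9, 24.7 and 18.5 CPM in AKR after OFL. In B6N it measured 29.1, 29.5, 37.2 and 21.7 CPM in naive libraries, and 13.2, 15.1 and 18.0 CPM after OFL. Every AKR library was below every B6N library in the naive state, and every AKR library was above every B6N library after OFL. Plin4 rose in AKR by 1.34 on the log2 scale and fell in B6N by 0.92, an interaction of 2.26 ± 0.20 (SE, edgeR adjusted p = 2.4e-08).

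Tsc22d3 (GILZ) is a leucine zipper protein that carries part of the anti-inflammatory action of glucocorticoids. Its naive levels were 61.0, 61.9, 59.8 and 63.1 CPM in AKR, against 128, 135, 148 and 132 CPM in B6N. After OFL they were 94.6, 108 and 87.3 CPM in AKR, and 88.1, 103 and 107 CPM in B6N. The strains did not overlap in naive libraries and overlapped fully after OFL. The interaction was 1.11 ± 0.09 (SE, edgeR adjusted p = 6.5e-09), from a rise in AKR and a fall in B6N.

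Fkbp5, a co-chaperone that lowers the hormone affinity of the glucocorticoid receptor, behaved differently within each strain. In naive libraries it measured 32.9, 30.6, 34.3 and 34.9 CPM in AKR, and 78.8, 61.9, 83.8 and 67.9 CPM in B6N. After OFL it measured 28.4, 31.8 and 28.7 CPM in AKR, and 33.1, 35.3 and 33.3 CPM in B6N. Every AKR library was below every B6N library in both states, with a narrower gap after OFL. It fell in B6N by 1.11 on the log2 scale, while the change in AKR was -0.16 (edgeR adjusted p = 0.09), and the interaction was 0.95 ± 0.12 (SE, edgeR adjusted p = 9.7e-06). Sult1a1, a sulfotransferase, had the same shape, with 8.09 ± 1.36 and 16.8 ± 0.844 CPM (SD, n = 4) in naive AKR and B6N and 7.99 ± 1.04 and 8.27 ± 1.09 CPM (SD, n = 3) after OFL.

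Fam107a, an actin-binding stress-response gene, and Cdkn1a, the cell cycle inhibitor p21, fell in both strains, further in B6N. Fam107a was at 339 ± 32.3 CPM in naive AKR and 559 ± 21.2 CPM in naive B6N (SD, n = 4), and at 246 ± 23.9 and 275 ± 3.17 CPM after OFL (SD, n = 3). Mertk, a receptor for the clearance of dying cells, and Zbtb16, a zinc finger repressor, rose in AKR, and Zbtb16 less so in B6N, with interactions of 0.59 ± 0.09 and 0.43 ± 0.08 (SE). Per1, Klf9 and Sgk1, which are also hormone targets, were not called. The interaction of Per1 was 0.07 ± 0.15 and that of Sgk1 0.27 ± 0.12 (SE). Dusp1, a phosphatase that is also an activity-induced gene, was the single member below 0, at -0.57 ± 0.30 (SE, edgeR adjusted p = 0.35).

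The receptors that bind the hormone had small interactions in the other direction. Nr3c1, the glucocorticoid receptor, was at -0.24 ± 0.07 and Nr3c2, the mineralocorticoid receptor, at -0.27 ± 0.08 (SE, edgeR adjusted p = 0.032 and 0.045). Both rose in both strains. Of 10 tested genes of the receptors and the stress axis these 2 were the only ones called (20%, against 1.54% of all genes called negative). Each call was lost in 8 of the 14 fits with 1 library removed. The highest adjusted p was 0.12 for both, without AKR OFL replicate 3.

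**Figure D2:**
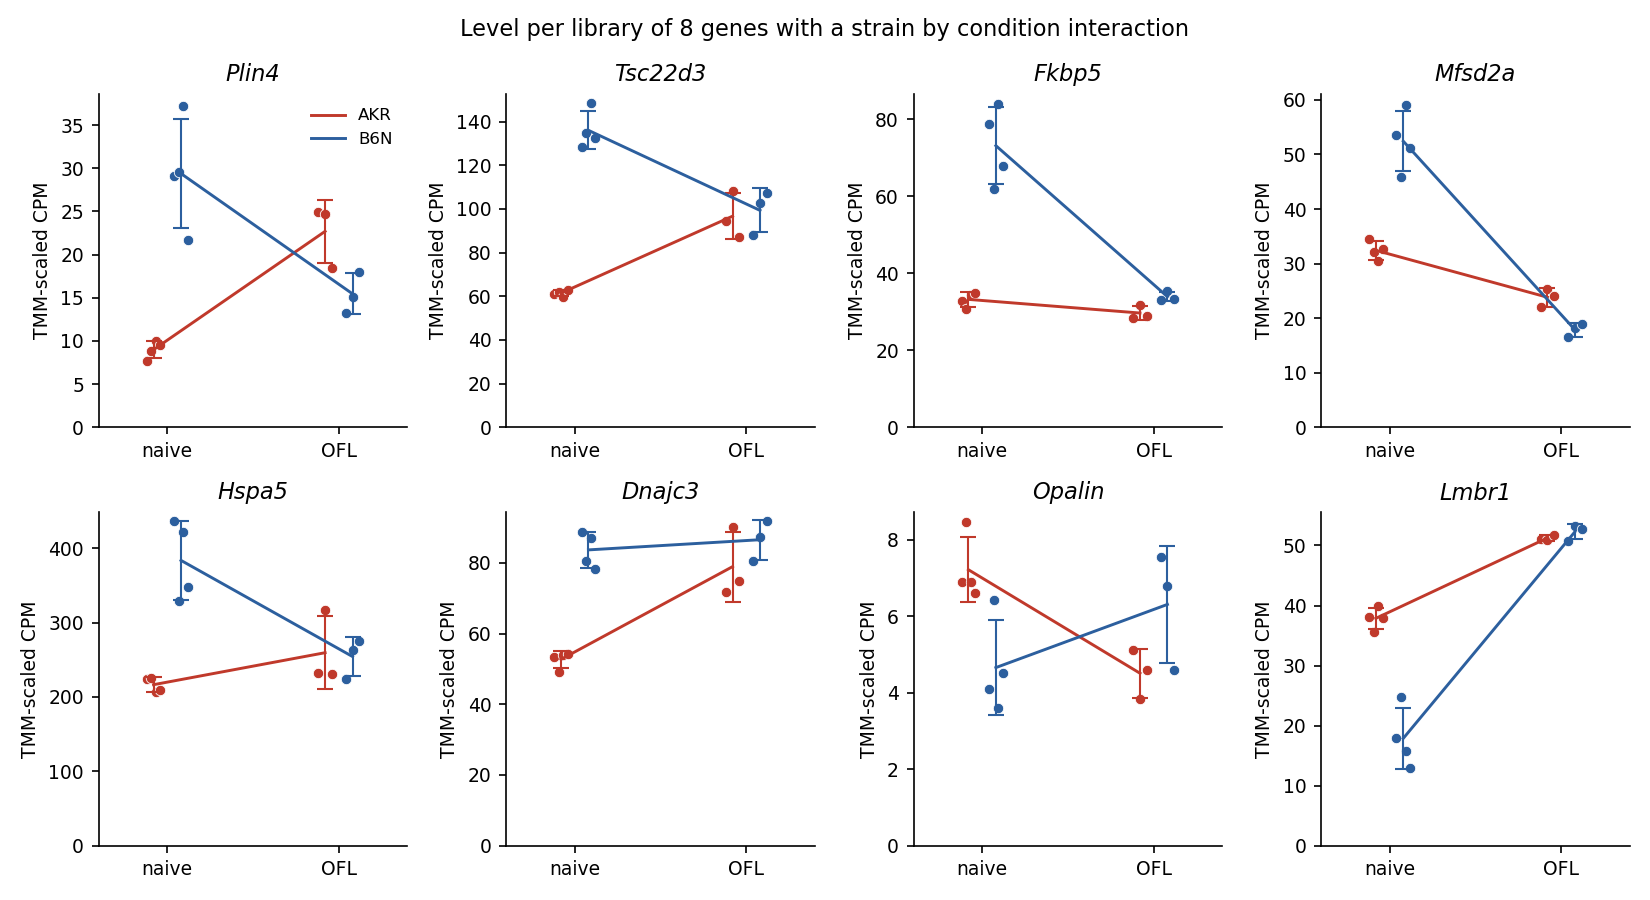
CPM per library (y axis, from 0) in naive and OFL groups of AKR (red) and B6N (blue); points are libraries, lines join group means and bars are SD (n = 4 naive, n = 3 OFL). Plin4 and Mfsd2a cross between the strains without overlap in either state. Opalin crosses in its group means, but its libraries overlap after OFL. Fkbp5 is lower in AKR in both states, by less after OFL, and Lmbr1 starts lower in B6N and overlaps after OFL.

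Endoplasmic reticulum chaperones and their regulators gave the highest share of called members among the 56 lists. Of 18 members, all tested, 14 (77.8%) were called positive and none negative (all genes, 3.61% positive and 1.54% negative). The median interaction was 0.46. In naive libraries 16 of 18 were called lower in AKR (all genes, 17.2%), with a median of -0.46. After OFL 1 was lower and none higher (all genes, 8.24% lower and 8.11% higher), with a median of 0.00. In AKR 10 members rose after OFL and 4 fell, and in B6N 2 rose and 13 fell (all genes, 39.8% rose and 38.8% fell in AKR, 40% and 38.4% in B6N). Without AKR OFL replicate 2, which had the highest summed level of the 3, the number called was 11 and the median 0.38.

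Hspa5, also called BiP, is the main Hsp70 chaperone of the compartment. It measured 224, 226, 207 and 209 CPM in naive AKR, and 437, 329, 422 and 347 CPM in naive B6N. After OFL it measured 232, 316 and 230 CPM in AKR, and 224, 263 and 276 CPM in B6N. The naive strains did not overlap, replicates 1 and 3 of naive B6N were the highest, and replicate 2 of AKR after OFL stood above the other two. The interaction was 0.86 ± 0.13 (SE, edgeR adjusted p = 0.00014).

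Sdf2l1, a partner of Hspa5 that slows protein aggregation, had the largest called interaction of the list, 1.21 ± 0.21 (SE, edgeR adjusted p = 0.00065). It fell in B6N from 19.8, 12.7, 19.3 and 15.2 CPM to 7.20, 8.12 and 8.0 CPM. In AKR it measured 8.41, 8.26, 7.72 and 8.48 CPM in naive libraries and 6.82, 11.4 and 8.30 CPM after OFL. Here the B6N groups separated and the AKR groups overlapped.

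Dnajc3 (p58IPK), a co-chaperone that also restrains the stress kinase of the compartment, moved in AKR instead. It rose in AKR from 53.4, 49.2, 54.1 and 54.2 CPM to 71.7, 90.3 and 74.9 CPM. B6N libraries measured 88.8, 80.5, 87.1 and 78.3 CPM in naive libraries and 80.5, 87.4 and 91.8 CPM after OFL, overlapping ranges. The interaction was 0.54 ± 0.09 (SE, edgeR adjusted p = 0.00051). Manf, a secreted protein of the stressed compartment, and Pdia4, a disulfide isomerase, had the same shape, at 0.76 ± 0.11 and 0.77 ± 0.14 (SE).

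Hyou1, a large Hsp70-type chaperone, rose in AKR from 130 ± 3.18 CPM (SD, n = 4) to 148 ± 8.72 CPM (SD, n = 3), and fell in B6N from 175 ± 15.6 to 141 ± 1.01 CPM. Xbp1, a transcription factor that drives the program, was called at 0.41 ± 0.08 (SE, edgeR adjusted p = 0.0033). Members of the other arms of the stress response were not called. Atf4 was at -0.10 ± 0.07, Ddit3 (CHOP) at 0.29 ± 0.12 and Trib3 at 0.95 ± 0.77 (SE, edgeR adjusted p = 0.52, 0.19 and 0.59), and the mean of Trib3 was under 1 CPM in every group.

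**Figure D3:**
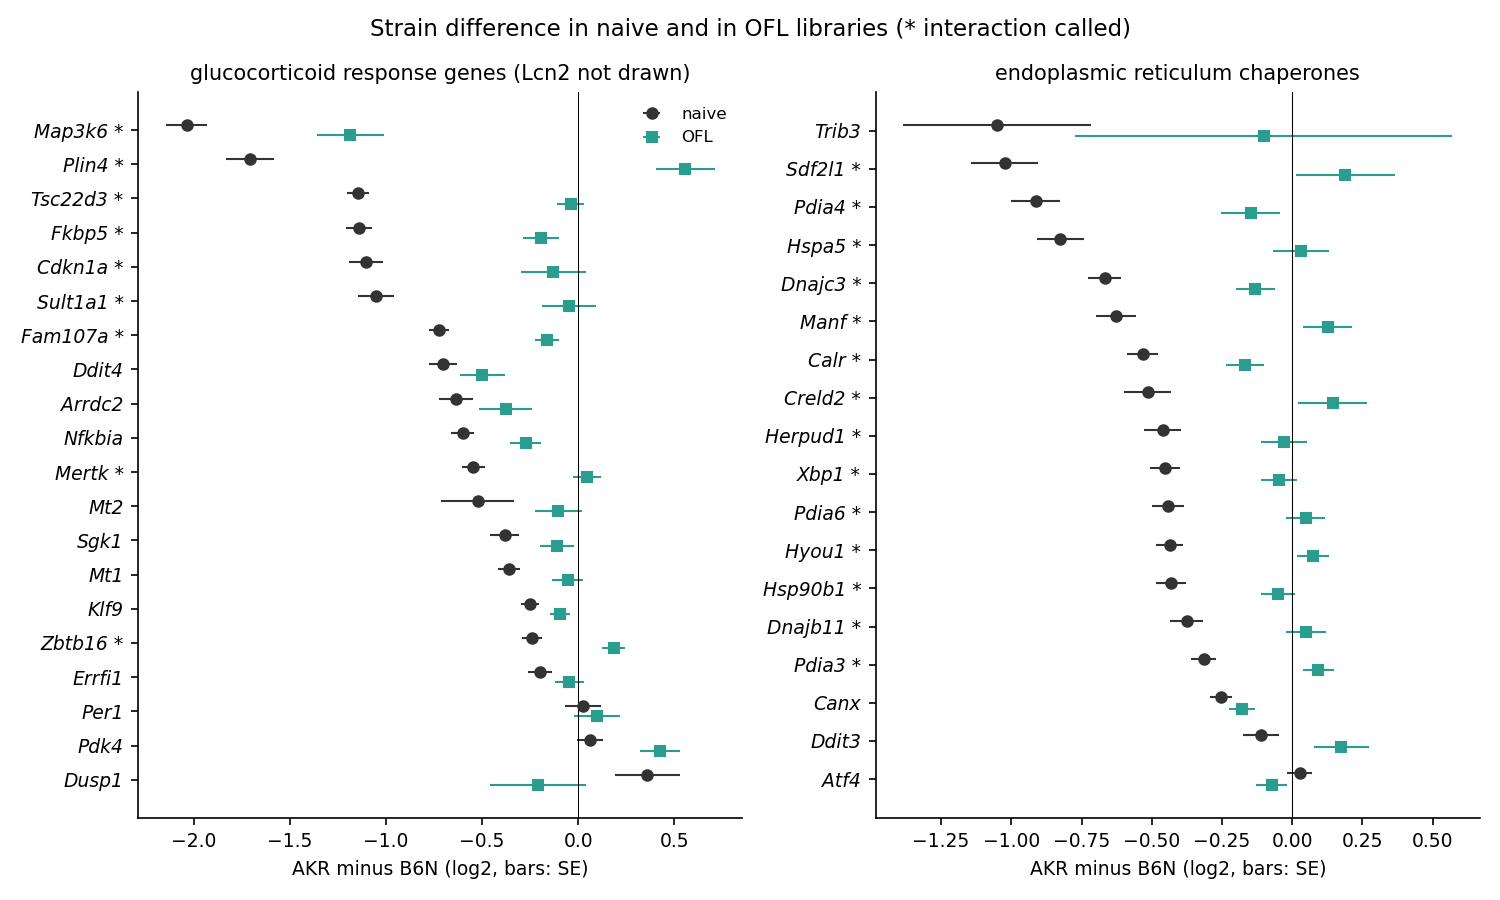
AKR minus B6N (x axis, log2, bars SE) in naive (dark circles) and OFL libraries (green squares) for the glucocorticoid genes and the endoplasmic reticulum chaperones, sorted by the naive difference; Lcn2 is not drawn. Naive values lie mostly below 0, with medians of -0.60 and -0.46, and OFL values near 0, with medians of -0.10 and 0.00.

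The promoters of the chaperones are shown because the list is known for a shared element, the ER stress response element (ERSE), which binds ATF6 and XBP1 with NF-Y. Its letters, CCAAT and CCACG with any 9 bases between them, were searched on both strands in the 250 bases before each RefSeq start (build GRCm38.p6). The motifs were chosen after the interactions were seen, so the counts are descriptions. The letters stood in 19 of 12676 tested genes with a promoter (0.15%), in 7 of 16 chaperone promoters, in 10 of 519 positive genes and in none of 214 negative genes. Capitals mark the match, and each window is printed 5′ to 3′ on the strand of its gene.
Hspa5: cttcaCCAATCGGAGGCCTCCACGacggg
Dnajc3: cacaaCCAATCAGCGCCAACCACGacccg
Pdia6: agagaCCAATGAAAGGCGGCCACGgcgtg
Hsp90b1 (near): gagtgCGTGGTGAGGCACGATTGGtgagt
Hsp90b1 (far): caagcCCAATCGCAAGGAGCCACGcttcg
Creld2: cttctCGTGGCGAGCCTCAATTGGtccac
Calr: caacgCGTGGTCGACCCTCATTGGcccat
Canx: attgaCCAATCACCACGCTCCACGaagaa

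The windows are chr2:34772020-34772048 (plus strand, Hspa5), chr14:118937822-118937850 (plus, Dnajc3), chr12:17266486-17266514 (plus, Pdia6), chr10:86705528-86705556 and chr10:86705633-86705661 (minus, Hsp90b1), chr15:88819515-88819543 (plus, Creld2), chr8:84847070-84847098 (minus, Calr) and chr11:50325795-50325823 (minus, Canx). In GENCODE the Hspa5 window lies in an exon of that gene and the others between genes. The match of Hspa5 began 65 bases before the RefSeq start. Of the 12 called chaperones with a promoter 6 held the letters, and of the 4 not called 1 did, Canx. Canx, the lectin chaperone calnexin, was at 0.08 ± 0.06 (SE, edgeR adjusted p = 0.57) and rose in both strains.

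The other 12 of the 19 genes lie outside the list, and 4 of them were called, all positive (all genes, 3.61% positive). They were named after their values were seen. Syvn1, the ubiquitin ligase that clears misfolded proteins from the compartment, was at 0.33 (edgeR adjusted p = 0.029). Derl3, a membrane component of the same clearance, was at 1.59 (0.032), though at a mean of only 1.69 CPM. Alg12, a mannosyltransferase of protein glycosylation, was at 0.49 (0.032), and its match is the same stretch as that of its neighbour Creld2, so the pair share 1 site. Zfp57, a zinc finger protein of imprinting, was at 0.47 (0.041). A second element of the program, TGACG followed by TGG, stood in 0.844% of all promoters and in none of the chaperones. It stood in none of the 519 positive genes and in 3 of the 214 negative genes (1.4%). The CREB element, TGACG followed by TCA, stood in 2.82% of all promoters and also in none of the chaperones.

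Paired half-sites of the glucocorticoid receptor, GNACA and TGTNC with any 3 bases between them, were searched the same way and stood in 43 of the 12676 promoters (0.339%) and in 4 of 20 glucocorticoid list promoters. They were 2 of 8 called and 2 of 12 uncalled members. The 4 windows are shown with capitals at the match.
Fam107a: ggcttGGACATGGTGTTCtgagt
Map3k6: tagggGCACAGGCTGTTCcggaa
Mt1: tatagGGACATGATGTTCcacac
Sgk1: ggaaaGAACAGAATGTTCtcgga

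These are chr14:8309880-8309902 (minus strand, an intron of Fam107a in GENCODE), chr4:133240632-133240654 (plus, between genes), chr8:94178990-94179012 (plus, between genes) and chr10:21993697-21993719 (plus, an intron of Sgk1). Map3k6, a stress kinase, was called at 0.85 ± 0.21, and Mt1, a metal-binding metallothionein, was not, at 0.31 ± 0.10 (SE, edgeR adjusted p = 0.017 and 0.078). A match is a description and shows no binding in these samples.

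Cytosolic heat shock genes shifted less. Of 18 members 4 (22.2%, against 3.61% of all genes) were called positive and none negative, with a median of 0.19. Hsph1, a large chaperone of the Hsp110 type, was at 0.44 ± 0.08, and Chordc1, a co-chaperone of Hsp90, at 0.41 ± 0.09 (SE, edgeR adjusted p = 0.0011 and 0.0052). Hsp90ab1, the constitutive Hsp90, and Stip1, which hands clients from Hsp70 to Hsp90, fell in both strains, further in B6N. Hspa1a and Hspa1b, near-identical inducible copies whose reads can be split between them, were not called, at 0.21 ± 0.20 and 0.84 ± 0.28 (SE). Without B6N naive replicate 2 the number called was 7.

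Genes that moved in opposite directions in the 2 strains were few. A rise in one strain and a fall in the other, each called, occurred for 82 genes, and 80 of them were called in the interaction, 54 up in AKR and 26 down. Opposite changes add up in the interaction, so this overlap was largely fixed in advance. Besides Plin4 and Tsc22d3, the rule named Nav1, Per2, Pdzd2, Tra2a, Rgl1 and Sdc4, and all 8 rose in AKR and fell in B6N. Nav1, a microtubule protein of growing axons, measured 96.6, 97.6, 98.3 and 92.8 CPM in naive AKR and 114, 113 and 120 CPM after OFL. The B6N values were 186, 181, 187 and 183 CPM in naive libraries and 156, 148 and 137 CPM after OFL. All 4 groups were separate, and the interaction was 0.60 ± 0.06 (SE, edgeR adjusted p = 4.5e-07). Sdc4, a cell-surface proteoglycan, was at 0.71 ± 0.10, and Tra2a, a splicing regulator, at 0.50 ± 0.06 (SE).

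Strain differences that reversed between the conditions, each called, occurred for 74 genes, and all 74 were called in the interaction. The interaction is the OFL strain difference minus the naive one, so this overlap too was largely fixed in advance. In 64 of the 74 genes AKR was lower in naive and higher in OFL libraries, and in 10 the reverse. Mfsd2a, the lipid transporter of the blood-brain barrier, measured 34.5, 32.1, 30.4 and 32.6 CPM in naive AKR, and 53.6, 45.8, 59.1 and 51.2 CPM in naive B6N. After OFL it measured 22, 25.4 and 24 CPM in AKR, and 16.5, 18.3 and 18.9 CPM in B6N. It fell in both strains, further in B6N, and the order of the strains turned over without overlap in either state. The interaction was 1.11 ± 0.11 (SE, edgeR adjusted p = 3.5e-07). Cdc37l1, a partner of Hsp90, rose in both strains, from 149 ± 8.89 to 324 ± 12 CPM in AKR and from 165 ± 5.17 to 236 ± 3.67 CPM in B6N.

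H2-T24, a nonclassical MHC class I gene, had the largest interaction under the naming rule, 2.45 ± 0.18 (SE, edgeR adjusted p = 8.0e-10). It fell in B6N from 13.9 to 15.1 CPM over the naive libraries to 2.03 to 2.88 CPM after OFL, and in AKR measured 5.55 to 6.35 and 4.67 to 6.04 CPM. Its family holds near-identical copies that differ between strains, so the value is uncertain. It was the only one of 16 MHC class I and peptide loading genes called (6.25%, against 3.61% of all genes positive), and the median of the list was -0.21.

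The clock gave 4 positive (21.1%, against 3.61% of all genes) and 1 negative (5.26%, against 1.54%) of 19 members. Per2, a repressor of the circadian loop that glucocorticoids also induce, measured 95.1, 98.7, 90.2 and 86.4 CPM in naive AKR and 103, 116 and 110 CPM after OFL. In B6N it measured 124, 113, 122 and 112 CPM in naive libraries and 88.7, 93.0 and 83.4 CPM after OFL. The strains were apart in both states, in opposite order, with an interaction of 0.66 ± 0.08 (SE, edgeR adjusted p = 2.5e-06). Cry1, Bhlhe41 and Per3, also repressors of the loop, were at 0.46 ± 0.11, 0.38 ± 0.09 and 0.26 ± 0.06, and Dbp, one of its outputs, at -0.34 ± 0.10 (SE). The negative call was absent in 7 of the 14 fits without a library, and without AKR naive replicate 4 or AKR OFL replicate 3 there were 2 negative members. The hour at which tissue was taken is not given in the sources used here, and its part in these values was not tested.

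Among hypoxia response genes 3 of 17 were called, all positive (17.6%, against 3.61% of all genes). Slc2a1, the glucose transporter of brain vessels and glia, was at 112 ± 5.83 CPM in naive AKR and 160 ± 11.9 CPM in naive B6N (SD, n = 4), and at 91.0 ± 3.33 and 87.4 ± 2.41 CPM after OFL (SD, n = 3). Its interaction was 0.58 ± 0.07 (SE, edgeR adjusted p = 1.9e-05). P4ha1, a collagen hydroxylase, was at 0.49 ± 0.10, and Pfkfb3, a driver of glycolysis, at 0.39 ± 0.10 (SE). Vegfa, the classical target of the pathway, was not called, at 0.19 ± 0.08 (SE, edgeR adjusted p = 0.20).

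Of the bHLH-PAS factors, the family of ARNT2 that senses oxygen, daylight and activity, 4 of 20 were called positive and 1 negative. The shares were 20% and 5%, against 3.61% and 1.54% of all genes. Hif3a, a hypoxia-inducible factor that glucocorticoids also raise, measured 16.5, 13.7, 15.2 and 16.2 CPM in naive AKR and 9.42, 9.26 and 10.5 CPM after OFL. In B6N it fell from 21.7, 24.3, 23.1 and 23.6 CPM to 8.71, 7.91 and 7.86 CPM. Both strains fell, and the interaction was 0.84 ± 0.13 (SE, edgeR adjusted p = 0.00011). Epas1, a hypoxia-inducible factor of vessels and glia, was at 0.50 ± 0.09, and Npas3, a neurodevelopmental factor, at -0.55 ± 0.10 (SE). Per2, given above with the clock, is also a called positive member of this list, so the counts of these lists overlap.

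Arnt2, the bHLH-PAS partner subunit in the title of the series, did not pass the test. It measured 721, 704, 690 and 685 CPM in naive AKR and 558, 540 and 550 CPM after OFL, and 435, 436, 440 and 434 CPM in naive B6N and 322, 310 and 321 CPM after OFL. AKR was above B6N in every library of both conditions, and both strains fell after OFL. The interaction was 0.11 ± 0.05 (SE, edgeR adjusted p = 0.23), with 0.08 to 0.13 over the other settings. On the linear scale the AKR change minus the B6N change was -31.4 CPM, the opposite sign.

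Sst, the peptide that names somatostatin interneurons, fell in both strains. It measured 164, 171, 153 and 168 CPM in naive AKR and 66.4, 64.7 and 70.5 CPM after OFL. B6N libraries measured 151, 157, 155 and 159 CPM in naive libraries and 58.8, 59.8 and 59.8 CPM after OFL. The interaction was 0.10 ± 0.06 (SE, edgeR adjusted p = 0.48). Of the 19 somatostatin interneuron genes none was called, with a median of 0.08. The smallest p was that of Cbln4, a secreted synapse organizer, at 0.74 ± 0.22 (SE, edgeR adjusted p = 0.052). With DESeq2 its adjusted p was 0.029, and over all settings it ran from 0.00039 with no low-count filter to 0.31.

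Other interneuron lists gave few calls. Of 12 parvalbumin interneuron genes none was called, and of 15 genes of VIP and caudal eminence interneurons Adarb2, an RNA-binding protein, was the only one, negative. Over 6 interneuron lists 3 of 71 genes were called positive and 2 negative, 7.04% against 5.15% of all genes. Of the positive calls, Sv2c was lost in 7 of the 14 fits without a library and Dlx1 in 9. Both were also lost with limma-voom and with scaling by total counts. Slc38a1, Adarb2 and Id2 kept their calls in all fits without a library. Id2, a transcriptional inhibitor enriched in LAMP5 interneurons, was at -0.43 ± 0.07 (SE, edgeR adjusted p = 0.00046), with 72.0 ± 2.55 and 85.1 ± 3.87 CPM in naive AKR and B6N (SD, n = 4) and 47.3 ± 2.15 and 75.1 ± 3.97 CPM after OFL (SD, n = 3). Nrxn3, a presynaptic adhesion molecule, rose in both strains, from 221 ± 7.42 to 482 ± 21.8 CPM in AKR and from 218 ± 5.22 to 448 ± 8.34 CPM in B6N, with an interaction of 0.09 ± 0.06 (SE, edgeR adjusted p = 0.45).

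Most ion channel genes were not called. Over 4 lists of voltage-gated and potassium channels 11 of 70 genes (15.7%) were positive and none negative, and the median was 0.09. The positive share was 3.61% of all genes and 5.08% of genes averaging 5 CPM or more. Kcna3, a delayed rectifier potassium channel, measured 7.04, 7.67, 7.56 and 8.35 CPM in naive AKR and 14.8, 13.8, 15.6 and 15.4 CPM in naive B6N. After OFL it measured 18.5, 18.7 and 19.4 CPM in AKR and 18.6, 18.5 and 18.4 CPM in B6N. The strains were separate in naive libraries and overlapped after OFL, with an interaction of 0.98 ± 0.10 (SE, edgeR adjusted p = 6.7e-07).

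Cacna1c, the L-type calcium channel Cav1.2, rose from 113, 121, 120 and 115 CPM to 187, 175 and 199 CPM in AKR. In B6N it rose from 144, 127, 149 and 144 CPM to 189, 177 and 178 CPM. The strains were apart in naive libraries and overlapped after OFL, with an interaction of 0.31 ± 0.07 (SE, edgeR adjusted p = 0.0094). Kcnj6, Kcnk9 and Kcnk1, which set resting potassium currents, were at 0.32 ± 0.08, 0.38 ± 0.10 and 0.29 ± 0.08 (SE). These 3 calls of the inward rectifier and two-pore list became 1 without AKR OFL replicate 1 or B6N OFL replicate 3, and the 3 of the calcium channel list became 5 without B6N naive replicate 2 and 2 in several other fits. Of the other channel calls, Cacna1g lost its call in 9 of the 14 fits without a library, Kcnd3 in 8 and Scn3b, the only sodium channel gene called, in 6.

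Transmitter receptors were called at about the background, 3 positive and 3 negative of 94 genes (6.38%, against 5.15% of all genes). Of these calls, Grik4 lost its call in 12 of the 14 fits without a library and Gabra4 in 6. Grin2b, Shisa7, Gria4 and Daglb kept theirs in all of these fits. Grin2b, an NMDA receptor subunit, showed that the scale can decide the sign. It rose in AKR from 313 ± 12.9 to 1182 ± 39.6 CPM, a 1.92 log2 change, and in B6N from 523 ± 20.4 to 1508 ± 49.8 CPM, a 1.53 log2 change (SD, n = 4 and 3). The interaction was 0.39 ± 0.06 on the log2 scale (SE, edgeR adjusted p = 8.7e-05) and -116 CPM on the linear scale. Such opposite signs occurred for 29 of the 732 positive genes (3.96%) and 13 of the 312 negative genes (4.17%).

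**Figure D4:**
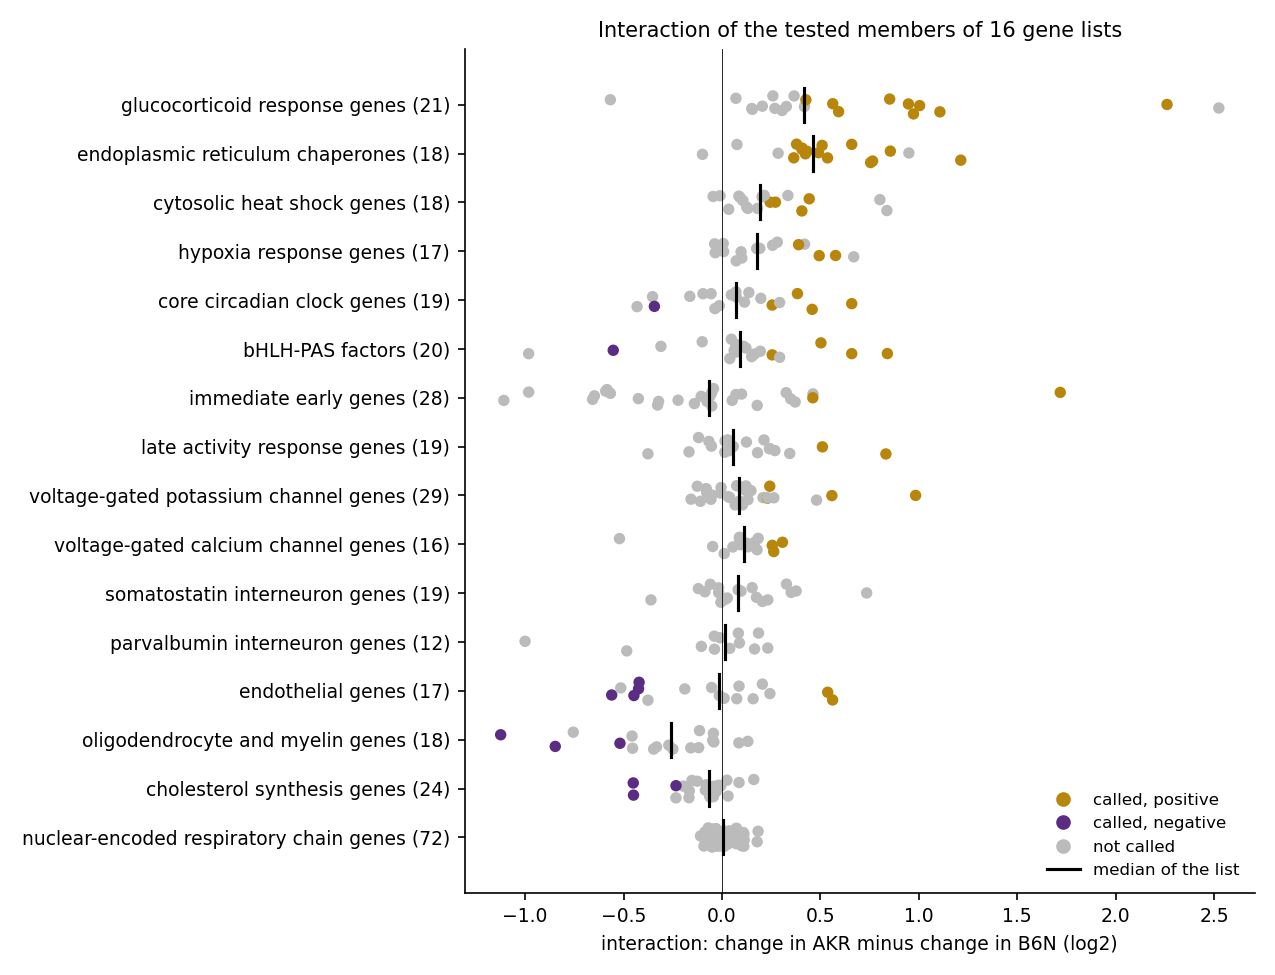
Log2 interaction (x axis) of the tested members of 16 lists (number tested in brackets); filled colours mark called members and the black bar the list median. The chaperone and glucocorticoid lists sit to the right, with medians of 0.46 and 0.42, the myelin list to the left at -0.26, and the respiratory chain list around 0.

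Immediate early genes, which neurons switch on within minutes of firing, showed no shared shift. Of 28 members 2 (7.14%, against 3.61% of all genes) were called positive and none negative, and the median was -0.07. Maff, a small Maf factor, was at 1.72 ± 0.38, at levels of 3.85 CPM or less. Jund was at 0.46 ± 0.11 (SE), but 52.6% of its exonic bases lie under exons of the other strand. Fos was at -0.42 ± 0.36, Npas4 at -0.98 ± 0.40 and Arc at -0.06 ± 0.32 (SE, edgeR adjusted p = 0.61, 0.18 and 0.97).

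The summed level of the immediate early list was 2364, 3091, 3093 and 1513 CPM in naive AKR and 1678, 1805 and 2194 CPM in AKR after OFL. In B6N it was 2338 to 2889 CPM in naive libraries and 1785 to 2224 CPM after OFL. Naive AKR replicate 4 stood below every other library. Without it 2 members were positive and 6 negative with a median of -0.27, without AKR OFL replicate 3 the counts were 2 and 2, and without B6N naive replicate 2 they were 4 and 0. Of 19 late activity genes 2 were called, both positive (10.5%, against 3.61% of all genes). They were Inhba, an activin subunit, at 0.83 ± 0.15 and Homer1, a synaptic scaffold, at 0.51 ± 0.11 (SE). Without AKR naive replicate 2 or B6N naive replicate 2 there were 4.

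Oligodendrocyte and myelin genes lay below 0. Of 18 members, 3 (16.7%, against 1.54% of all genes) were called negative and none positive, 16 lay below 0 and the median was -0.26. Opalin, a myelin membrane protein, measured 6.89, 8.48, 6.89 and 6.62 CPM in naive AKR and 5.12, 3.83 and 4.59 CPM after OFL. The B6N values were 4.09, 6.43, 3.60 and 4.51 CPM in naive libraries and 7.54, 6.79 and 4.60 CPM after OFL. The AKR groups separated and the B6N groups overlapped, with an interaction of -1.12 ± 0.25 (SE, edgeR adjusted p = 0.0062). Aspa, which breaks down N-acetylaspartate, was at -0.85 ± 0.22, and Ugt8a, which makes galactocerebroside, at -0.52 ± 0.15 (SE, edgeR adjusted p = 0.023 and 0.038).

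Other myelin genes were not called, among them Mbp at -0.11 ± 0.14 and Mag at -0.45 ± 0.19 (SE). The summed level of the list was 2063 to 2354 CPM in naive AKR and 1305 to 1597 CPM after OFL. It was 2020, 2727, 2086 and 1919 CPM in naive B6N and 2023, 1679 and 1404 CPM after OFL. Naive B6N replicate 2 stood highest, and the 3 B6N libraries after OFL spread widely. The called members numbered 1 without B6N OFL replicate 1, with a median of -0.06, and also 1 without AKR OFL replicate 3 or B6N naive replicate 1. They numbered 7 without B6N naive replicate 2 and 5 without B6N OFL replicate 3. With DESeq2 or with robust dispersion 1 member was called, and with no low-count filter 7. The call of Ugt8a was lost in 9 of the fits without a library and that of Aspa in 3, and both were lost with DESeq2 (adjusted p = 0.13 and 0.088) and with robust dispersion (0.20 and 0.15). Without B6N OFL replicate 1 the edgeR adjusted p was 0.13 for Ugt8a and 0.081 for Aspa.

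**Figure D5:**
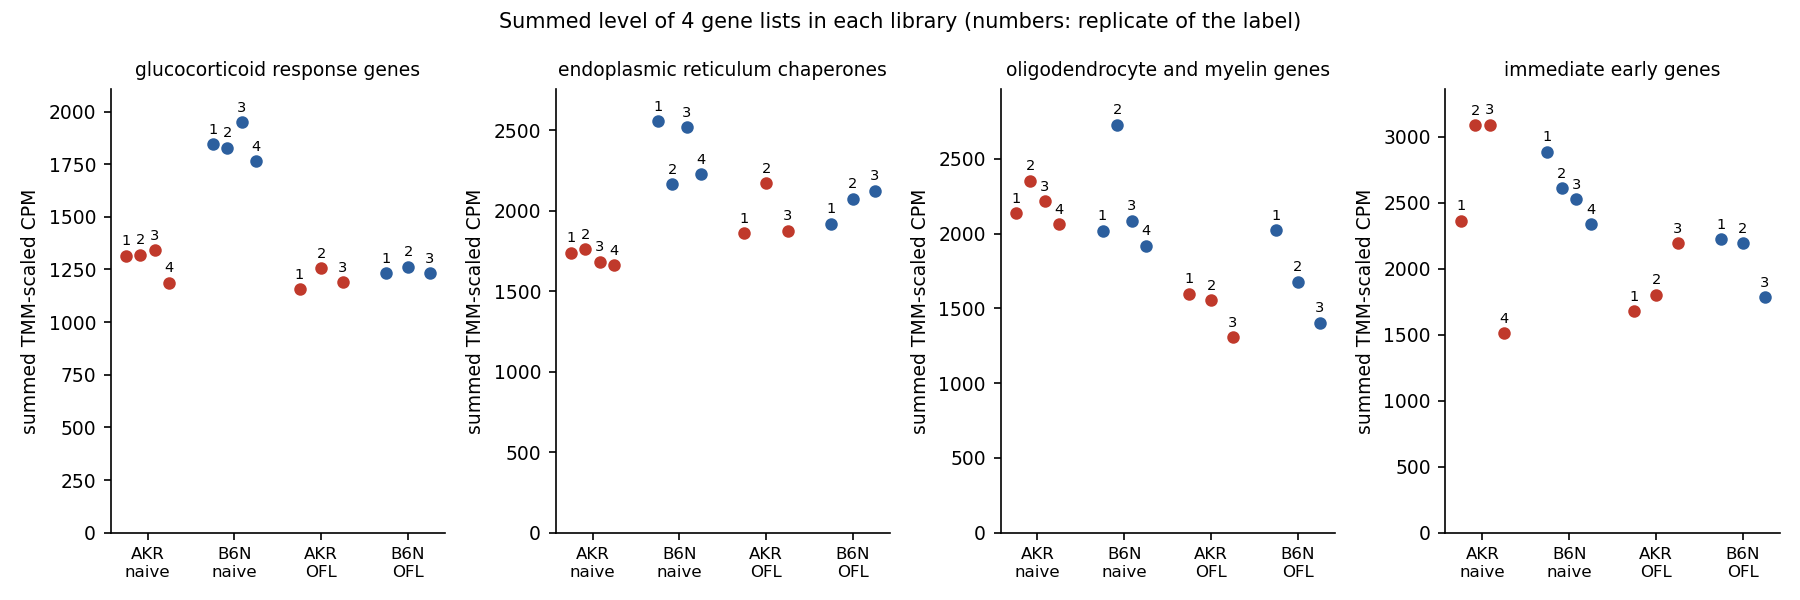
Summed CPM (y axis, from 0) of 4 lists in each library, with the replicate number of the label above each point, AKR in red and B6N in blue. The glucocorticoid sums are 1186 to 1341 CPM in naive AKR and 1765 to 1948 CPM in naive B6N, while single libraries stand apart in the myelin and immediate early sums.

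Endothelial genes moved both ways, 2 positive (11.8%, against 3.61% of all genes) and 4 negative (23.5%, against 1.54%) of 17, with a median of -0.01. Slc16a1, the lactate and ketone transporter MCT1, rose in both strains, from 39.8 ± 3.01 to 45.7 ± 0.546 CPM in AKR and from 25.9 ± 1.27 to 43.8 ± 1.60 CPM in B6N. Its interaction was -0.56 ± 0.08 (SE, edgeR adjusted p = 0.00010). Ly6a and Ly6c1, surface proteins of a family of close copies, were at 0.56 ± 0.12 and 0.54 ± 0.12 (SE). Cldn5 and Pecam1, which define the cell type, were at 0.09 ± 0.11 and 0.01 ± 0.11 (SE). The summed level of the list was 598 to 710 CPM in naive and 504 to 557 CPM in OFL libraries. Without AKR naive replicate 1 the counts were 4 positive and 1 negative, and the negative count was 1 or 2 in 10 of the 14 fits without a library.

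Cholesterol synthesis genes were called negative in 3 of 24 cases (12.5%, against 1.54% of all genes) and positive in none. Insig1, which holds back the pathway's activator when sterol is plentiful, measured 55.7, 58.8, 65.4 and 55.6 CPM in naive AKR and 64.4, 55.4 and 63.1 CPM after OFL. In B6N it rose from 58.6, 59.1, 57.8 and 54.6 CPM to 76.9, 79.9 and 87.4 CPM. The AKR groups overlapped and the B6N groups did not, with an interaction of -0.45 ± 0.09 (SE, edgeR adjusted p = 0.0016). Hmgcs1, an early enzyme of the pathway, was at -0.23 ± 0.06 (SE). Without AKR OFL replicate 2 or B6N OFL replicate 2, 1 member of the list was called.

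Among protein-coding genes of at least 5 CPM with little opposite-strand overlap, 3 negative interactions were at least 2-fold: Espn, Opalin and Lmbr1. Lmbr1, a membrane protein whose intron holds a limb enhancer of Shh, measured 18.0, 24.8, 15.8 and 12.9 CPM in naive B6N and 50.8, 53.2 and 52.8 CPM after OFL. In AKR it rose from 38.1, 35.5, 39.9 and 38.0 CPM to 51.2, 50.8 and 51.7 CPM. The strains were separate in naive libraries and close after OFL, with an interaction of -1.11 ± 0.15 (SE, edgeR adjusted p = 3.2e-05). The next were Evi2a, Dnah7b, Lmcd1 and Aif1l, at -0.93 ± 0.24, -0.90 ± 0.15, -0.88 ± 0.20 and -0.85 ± 0.19 (SE), of which Dnah7b belongs to a family of close copies. Zfp619, a zinc finger protein, was at -0.81 ± 0.15 (SE). Espn, an actin bundler, was at -1.23 ± 0.34 (SE, edgeR adjusted p = 0.032), and the call was lost in 4 fits without a single library, up to 0.16 without B6N OFL replicate 2.

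On the positive side, Dio2, the astrocyte enzyme that activates thyroid hormone, measured 134, 91.3, 97.9 and 84.4 CPM in naive AKR and 165, 177 and 152 CPM after OFL. In B6N it measured 213, 158, 242 and 189 CPM in naive libraries and 139, 159 and 155 CPM after OFL. The AKR groups separated, the B6N groups overlapped at their edges, and the interaction was 1.11 ± 0.16 (SE, edgeR adjusted p = 7.9e-05). Rasd1, a small GTPase induced by dexamethasone, fell from 11.5 ± 1.44 to 2.03 ± 0.394 CPM in B6N and from 5.26 ± 0.380 to 2.72 ± 0.696 CPM in AKR, an interaction of 1.54 ± 0.25 (SE). Kirrel2, an adhesion molecule, and Pglyrp1, a protein that binds bacterial cell wall, fell in both strains, further in B6N, at 1.20 ± 0.18 and 1.45 ± 0.24 (SE).

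Several other lists had few or no called members, which does not show that they had no interaction. None of the 72 nuclear-encoded respiratory chain genes was called, with a median of 0.00, and of 80 cytosolic ribosomal protein genes 1 was, Rpl30. None of 24 interferon response genes, with a median of -0.15, and none of 10 complement genes was called. Of the 12 tested genes of the mitochondrial genome none was called, but 1 lay above 0 and the median was -0.16. Without B6N OFL replicate 3 the median was -0.24 with 2 negative calls, without B6N OFL replicate 1 there was 1, and with no low-count filter there were 3. The summed level of these genes was 13192 to 15867 CPM in naive libraries and 4445 to 4988 CPM after OFL.

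Histone genes had the highest median of the lists, 0.60, and 6 of 49 were called positive (12.2%, against 3.61% of all genes). Their median OFL minus naive change was 5.50 in AKR and 4.85 in B6N. The 49 genes together measured 44.9 to 46.7 CPM in naive AKR and 61.1 to 63.9 CPM in naive B6N. After OFL they measured 347 to 372 and 356 to 360 CPM. At low naive levels a small difference in CPM gives a large log2 difference. There were 2 positive calls without AKR naive replicate 4, B6N naive replicate 1 or AKR OFL replicate 2, and 3 without B6N OFL replicate 2 or 3. Across 56 lists, 16 had no called member.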

How the data were processed

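The authors deposited raw counts per gene in a naive and an OFL table, and these counts were joined on gene id. Per the submitters' processing notes, the build was GRCm38 and the tools named are TopHat2 2.1.1, cutadapt 2.7, HTSeq, CASAVA and edgeR; the annotation release and strand setting are not given in the sources used here. The deposited CPM tables were not used, because each column is the same library's counts times a constant. Genes were named by GENCODE vM21 (53360 of 53465 ids).

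Of 53465 genes, 20291 passed edgeR's filterByExpr. All 14 libraries entered 1 quasi-likelihood fit (edgeR 4.0.16, R 4.3.3; TMM, 1 mean per group), with Benjamini-Hochberg adjustment over all tested genes. SE is the log2 value divided by the root of F. Tested on simulated data for the interaction over 20291 genes, 81% of genes changed 1.5-fold and 99% of those changed 2-fold were called, all with a mean count of at least 50, and 6.25% of calls were false. Each simulated gene had the same mean level in every group, with the change placed in AKR OFL only. Strain and condition differences were left out, so these rates need not hold for the real libraries. Outliers were sought in groups of 4.

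Members and gene lists were chosen with earlier results of these data known. The naming rule took Arnt2, Sst, Nrxn3 and Cacna1c. It took the 12 largest called interactions in each direction among protein-coding genes of at least 5 CPM, with under 5% opposite-strand overlap. It took up to 8 genes with opposite changes and up to 8 with opposite strain differences, and up to 4 called members of each list (or the member with the smallest p). Members printed beyond it were chosen after their values were seen. Alternatives were DESeq2 1.42.0, limma-voom (limma 3.58.1), other scalings and filters, the replicate block and leaving out each library. Some genes are not reported here.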

Additional observations from a re-analysis of the deposited data

Results flagged for a closer look

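The change after OFL differed between the strains, by the interaction test, for 732 genes in the positive and 312 in the negative direction. Among those that rose in AKR and fell in B6N the log2 interaction was 2.26 for Plin4, 1.11 for Tsc22d3, 0.60 for Nav1, 0.66 for Per2, 0.52 for Pdzd2, 0.50 for Tra2a, 0.59 for Rgl1 and 0.71 for Sdc4.

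In 18 of 228 groups of 4 naive libraries, 1 library stood apart from the other 3, where chance gives about 1 in 20. In naive AKR replicate 1, Aif1l measured 7.58 CPM, Fam107a 387 CPM, Inhba 23.1 CPM, Slc2a1 120 CPM, Id2 68.3 CPM and Itm2a 70.7 CPM. That library also held 0.0492 CPM of Gm24657, which had no count in the other 3. Any count at all would stand apart there, so this case cannot be set against the chance rate. In naive AKR replicate 2, Opalin measured 8.48 CPM, Dnajc3 49.2 CPM and Sv2c 26.8 CPM. In naive AKR replicate 4, Hsph1 measured 259 CPM. In naive B6N replicate 2, Itga11 measured 2.74 CPM, Aspa 9.72 CPM and Ugt8a 26.1 CPM. In naive B6N replicate 3, Map3k19 measured 10.5 CPM, Dlx1 37.6 CPM and Ly6a 31.6 CPM. In naive B6N replicate 4, Uty measured 21.4 CPM.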

How the results depend on the processing

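Against 732 positive and 312 negative genes, 12 other settings were run, and 14 fits that each left out a library. Genes without opposite-strand exon overlap gave 479 and 216, from fewer genes tested, and a test against a fold of 1.5 gave 47 and 17. Scaling by total counts gave 589 and 357, so that 62.3% of calls were positive against 70.1%. Leaving out a library gave 500 (without B6N OFL replicate 3) to 871 (without B6N naive replicate 2) positive genes and 207 (without B6N OFL replicate 2) to 402 (without B6N naive replicate 2) negative genes. Of 114 named genes that were called, 76 kept the call in every setting that tested them, the 1.5-fold test not counted, 38 lost it in at least 1 and none reversed. The cause was not tested.

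The labels do not say whether equal replicate numbers pair libraries. Over 19 same-number pairs the correlation of deviations from the group means was -0.0426 to 0.0439, with a median of 0.00031. The median for other pairs was -0.0045, and pairing that acts on few genes would not show in such correlations. With the replicate number as a block there were 710 positive and 303 negative genes.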

Other observations

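Single members of other lists were also called. Slc38a1, a glutamine transporter of inhibitory neurons, was at 0.30 ± 0.06 (SE, edgeR adjusted p = 0.0040). Gpr17, a receptor of oligodendrocyte precursors that are about to differentiate, was at 0.41, and Enpp6, an enzyme of newly formed oligodendrocytes, at -0.77 (edgeR adjusted p = 0.0033 and 0.022). Long noncoding RNAs were called in 48 positive (2.1%) and 24 negative (1.05%) cases of 2281, and small nucleolar and Cajal body RNAs in 2 (1.32%) and 1 (0.658%) of 152. These shares lie below those of all genes, 3.61% and 1.54%.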
